A study of Homo sapiens with 9 samples.

Results

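The HOX genes encode homeodomain transcription factors that set the identity of cells along the body axis, and in human cells they lie in 4 clusters. 38 of them were followed here, 10 of HOXA, 10 of HOXB, 9 of HOXC and 9 of HOXD, among 20176 protein-coding genes of the annotation. They were chosen by position only. All bins of 40 kb that overlap a cluster were taken in the hg19 build, giving HOXA 5 bins at chr7:27080001-27280000, HOXB 6 bins at chr17:46600001-46840000, HOXC 5 bins at chr12:54280001-54480000 and HOXD 4 bins at chr2:176920001-177080000. These are 20 of 77404 bins, all 20 usable in every library, and each cluster was read with a flank of 38 bins (about 1.5 Mb) on either side.

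The cells were IMR90, a line of human diploid lung fibroblasts, stably infected with ER:HRAS(G12V), an oncogenic HRAS fused to the oestrogen receptor that stays idle until 4-hydroxytamoxifen (4OHT) is added. Growing cells carried this construct and received no tamoxifen, and RAS-induced senescent (RIS) cells received 100 nM 4OHT for 6 days. Hi-C, which ligates and sequences DNA ends that lie close together in the nucleus, covered 3 growing and 2 RIS libraries. The cells of growing replicate 3 additionally carried an MSCV vector. Capture Hi-C, which enriches a Hi-C library for chosen regions with RNA baits, was analysed in 2 growing and 2 RIS libraries. All libraries come from 1 line, so p-values measure the spread between libraries of that line, and no expression was measured in them, so the labelled cell type was not checked against its marker genes.

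Growing Hi-C libraries had a depth of 154318992, 175410468 and 180775315 contacts and RIS libraries 109967509 and 150689993, so both RIS libraries were shallower. Contacts within chromosomes made up 92.7, 92.4 and 93.0% in growing libraries and 90.2 and 90.4% in RIS. The RIS capture libraries, with 99774569 and 69098425 contacts, were also shallower than the growing ones, with 171726872 and 149306318. An effect of depth or of the share within chromosomes was not tested. Between 1009 and 1637 Hi-C contacts lay within HOXA in each library, 1106 to 1542 within HOXB, 513 to 712 within HOXC and 450 to 660 within HOXD. Growing replicate 3 and RIS replicate 2 had lost more reads as duplicates than the other libraries, and values within these 2 classes of libraries are given beside the results that were called. Values per library are given in the order of replicates 1, 2 and 3 for growing and 1 and 2 for RIS.

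Within each cluster the genes are ordered by number, the low-numbered genes being used early and towards the head and the high-numbered genes late and towards the tail. Polycomb complexes keep unused HOX genes silent and Trithorax complexes keep used ones active, and fibroblasts retain a HOX pattern that reflects where in the body they arose. Distal enhancers that act on HOXA and HOXD genes lie in the gene-poor DNA on either side of these clusters, and CTCF, a DNA-binding protein at which cohesin-driven loops often end, separates stretches of HOX genes that contact different sides. HOXA and HOXB have their low-numbered genes at the lower coordinate, and HOXC and HOXD at the higher coordinate. The flank beside the low-numbered genes is called the low-numbered flank here and the other the high-numbered flank.

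The sequences below are matches to the CTCF core motif, searched on both strands of the reference genome (GRCh37, the hg19 sequence), and are shown as examples near the points inside HOXA, HOXB and HOXD where contact was lowest or changed side, with the single match of HOXC for comparison. They are 7 of the 16 matches found and were picked after the contact values were seen, and other matches lie in the same and neighbouring bins. Each is written 5′ to 3′ on the strand of the match, with the 12 bases of the motif in capitals.
HOXA, between the start sites of HOXA7 and HOXA9, in no HOX gene, chr7:27200748-27200777, minus strand: aaacggcggCCAGCAGATGGCagtgtggct
HOXA, between the start sites of HOXA11 and HOXA13, in no HOX gene, chr7:27228604-27228633, minus strand: gggcccggcCCTGCAGAGGGCtgcctggac
HOXB, within the span of HOXB7, chr17:46697997-46698026, minus strand: agacagaggCCTCCAGAGGGCtggaatctc
HOXB, between the start sites of HOXB7 and HOXB13, in no HOX gene, chr17:46740675-46740704, plus strand: ccggagcaaCCACCAGATGGCcctgtatgt
HOXC, within the spans of HOXC4 and HOXC6, chr12:54420078-54420107, plus strand: acctcttgcCCTCCAGGGGGCctgaagcct
HOXD, before HOXD13, in no HOX gene, chr2:176944803-176944832, minus strand: acgtcgccaCCGCCAGGGGGCcgcgcccgc
HOXD, between the start sites of HOXD9 and HOXD8, in no HOX gene, chr2:176990577-176990606, minus strand: acgtctggcCCGCTAGATGGCtttatgaca
The 16 matches lay in 9 of the 20 HOX bins. Of all usable 40 kb bins on chromosomes 2, 7, 12 and 17, 26.5% held a match. HOX bins were also richer in G and C, at 40 to 54.03% against a median of 39.9% over those bins. A match is a description of the letters and not evidence of bound CTCF.

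The first comparison asked how tightly each cluster contacts itself. Contact is given as log2 observed/expected, the log2 of the mean balanced contact between different bins of the cluster over the mean at the same distances across autosomes and X in the same library, so that 0 is the genome's average. HOXD gained contact with itself in RIS, and the other 3 clusters did not pass the test on balanced contacts between the bins of the cluster alone. In HOXD, whose genes pattern the limbs and the trunk, the growing libraries had a self-contact of -0.59, -0.56 and -0.56 and the RIS libraries -0.35 and -0.37. The 2 RIS libraries lay above all 3 growing libraries, a difference of 0.21 ± 0.04 (SE), or 1.16-fold, with an adjusted p of 0.0031 by limma over all windows of 4 bins. 38.5% of the 67829 windows of 4 bins were called in either direction and 14% higher in RIS, and 25.8% had both RIS libraries above the growing ones. The difference was 0.23 within the libraries with few duplicates and 0.19 within those with many. The calls changed with the setting. With 1 bin more on each side HOXD gave 0.06 (adjusted p = 0.2), while HOXB (0.11, adjusted p = 0.015) and HOXC (0.12, adjusted p = 0.028) passed. On contacts before balancing HOXB (0.25, adjusted p = 0.0041), HOXC (0.40, adjusted p = 0.00087) and HOXD (0.24, adjusted p = 0.0084) all passed. With 1 bin more, 50.7% (HOXB), 49.2% (HOXC) and 47% (HOXD) of windows of the same size were called, 21.4, 20.2 and 18.7% higher in RIS. Before balancing, in the same order, 46.3, 43.8 and 39.7% were called, 23.6, 22.6 and 20.9% higher.

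HOXA was the cluster with the least contact with itself. It stood at -0.69, -0.64 and -0.75 in growing and -0.74 and -0.78 in RIS libraries, which overlapped (difference -0.07 ± 0.04, adjusted p = 0.24). Only 3.33% of all windows of 5 bins had a growing mean at or below that of HOXA. HOXB self-contact was -0.30, -0.34 and -0.35 in growing libraries and -0.25 and -0.28 in RIS (difference 0.06 ± 0.04, adjusted p = 0.185). Both RIS values were above the growing ones, as in 29.3% of windows of 6 bins, while 47% of such windows were called in either direction. HOXC was the only cluster at or above the genome's average in most libraries, with 0.16, 0.09 and -0.01 in growing libraries and 0.28 and 0.09 in RIS (difference 0.11 ± 0.06, adjusted p = 0.155). The HOXC groups overlapped, and without RIS replicate 2 the difference was 0.20 and passed (adjusted p = 0.03), while without RIS replicate 1 it was 0.01 (adjusted p = 0.89). With a block for the duplicate class it was 0.13 and passed (adjusted p = 0.023). For HOXA and HOXC the background was 43.9% of windows of 5 bins called.

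**Figure D1:**
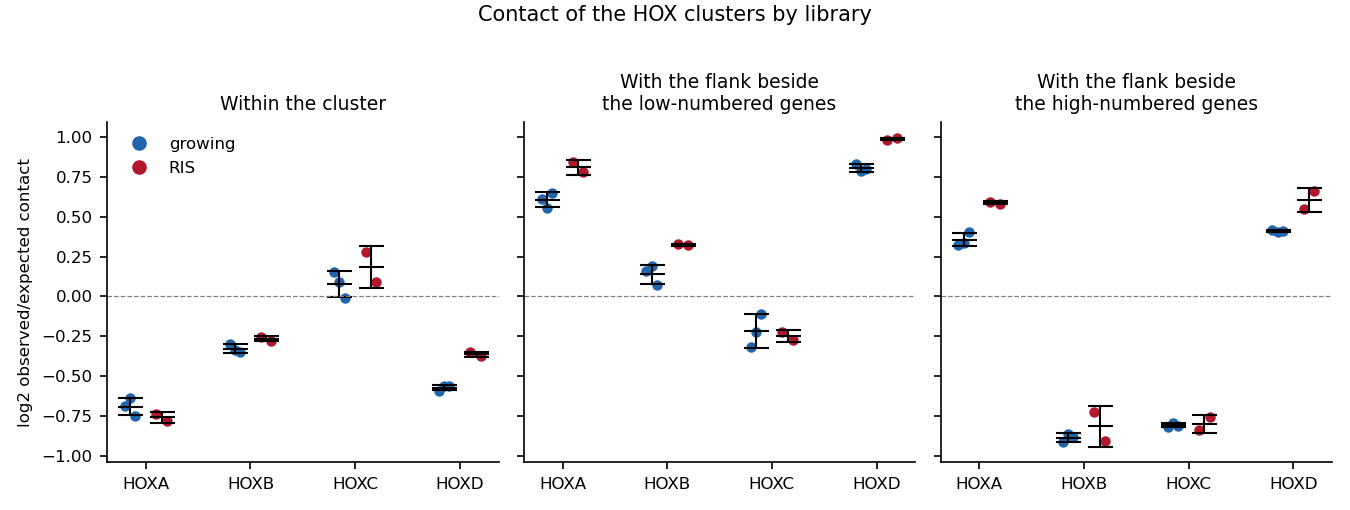
Log2 observed/expected contact of the 4 HOX clusters (vertical axis) within the cluster, with the low-numbered flank and with the high-numbered flank, 1 point per Hi-C library, growing in blue and RIS in red, with horizontal lines at the mean and at 1 SD on either side (n = 3 and 2). The 2 RIS libraries lie above all growing libraries for HOXD in each panel, for both flanks of HOXA, for the low-numbered flank of HOXB and for HOXB within the cluster.

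The next comparison asked how each cluster contacts its surroundings. Contact of a whole cluster with a flank rose in RIS for 5 of 8 flanks and fell for none, both flanks of HOXA, both of HOXD and the low-numbered flank of HOXB. Called flanks were common across the genome, so each count is set beside its background below. The median difference over the 8 HOX flanks was 0.18, and over all windows of the genome it was between -0.0022 and -0.0050, depending on the size and side.

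HOXA contacted both of its flanks more than expected. With the low-numbered flank, which holds SKAP2 (an adaptor protein of immune signalling) and then SNX10 and CBX3, its values were 0.61, 0.56 and 0.65 in growing libraries and 0.84 and 0.78 in RIS. With the high-numbered flank, which begins with the homeobox gene EVX1 and continues to HIBADH, JAZF1 and CREB5, they were 0.33, 0.34 and 0.41 against 0.59 and 0.58. On both sides the RIS libraries were above every growing library. The differences were 0.21 ± 0.05 (adjusted p = 0.0093) and 0.23 ± 0.05 (adjusted p = 0.0044) by limma. Within libraries with few and with many duplicates they were 0.26 and 0.13 on the low-numbered side and 0.26 and 0.18 on the high-numbered side. Of all windows of 5 bins, 46.7% were called for the lower-coordinate and 46.3% for the higher-coordinate flank, 21.2% and 21.1% higher in RIS, and in 33.3% and 33.1% both RIS libraries were above the growing ones. Without RIS replicate 1 the low-numbered flank gave 0.17 and an adjusted p of 0.063. With only the nearest 13 bins of the high-numbered flank, HOXA contact was below expected in every library. It was -0.36, -0.47 and -0.33 in growing libraries and -0.20 and -0.31 in RIS.

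HOXD also had both RIS libraries above the growing ones with both flanks. Its low-numbered flank starts with MTX2, a protein of the outer mitochondrial membrane. Values there were 0.83, 0.79 and 0.80 in growing libraries and 0.99 in RIS replicate 1 and 1.00 in RIS replicate 2. With the high-numbered flank they were 0.41, 0.41 and 0.41 in growing libraries and 0.55 and 0.66 in RIS. The groups did not overlap on either side. The differences were 0.18 ± 0.05 (adjusted p = 0.012) and 0.20 ± 0.05 (adjusted p = 0.013) by limma, with 0.18 and 0.19 in the 2 duplicate classes on the low-numbered side and 0.14 and 0.25 on the high-numbered side. Leaving out growing replicate 2 took the low-numbered flank to 0.17 (adjusted p = 0.058), contacts before balancing took it to 0.14 (adjusted p = 0.082), and leaving out RIS replicate 2 took the high-numbered flank to 0.14 (adjusted p = 0.078). Of all windows of 4 bins, 44.6% were called for the lower-coordinate and 44.1% for the higher-coordinate flank, 20.1% and 19.8% higher in RIS, and in 32.4% and 32.3% both RIS libraries were above the growing ones.

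HOXB and HOXC lie in gene-rich DNA and differed from HOXA and HOXD in that contact with the high-numbered flank was well below the genome's average. HOXB contact with its low-numbered flank, which begins with SKAP1 (an adaptor protein of T cells), was 0.16, 0.19 and 0.07 in growing libraries and 0.33 and 0.32 in RIS. The RIS libraries were higher by 0.18 ± 0.05 (adjusted p = 0.014), 0.15 within the libraries with few duplicates and 0.25 within those with many. Without RIS replicate 1 the adjusted p of that flank was 0.063 at a difference of 0.18. With the high-numbered flank HOXB had -0.92, -0.86 and -0.88 in growing libraries and -0.73 and -0.91 in RIS (difference 0.07 ± 0.06, adjusted p = 0.35), where the groups overlapped. Without RIS replicate 2 this flank passed, at 0.16 (adjusted p = 0.048). On contacts before balancing it also passed, with a larger difference than 0.07. Of all windows of 6 bins, 48.4% were called for the lower-coordinate and 48% for the higher-coordinate flank, 22.3% and 22.1% higher in RIS, and in 34% and 33.6% both RIS libraries were above the growing ones.

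HOXC had values of -0.32, -0.22 and -0.11 with its low-numbered flank in growing libraries and -0.22 and -0.27 in RIS. With its high-numbered flank, which runs to the keratin genes, it had -0.82, -0.80 and -0.81 against -0.84 and -0.76. Both pairs of groups overlapped, with differences of -0.03 ± 0.06 (adjusted p = 0.71) and 0.01 ± 0.05 (adjusted p = 0.89). On contacts before balancing the difference with the high-numbered flank was larger and passed.

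For HOXA and HOXD the gain was called in the far part of the flanks with all 5 libraries. The flank was split, after its values were seen, into the nearest 13 bins (520 kb) and bins 14 to 38. With all 5 libraries, 4 of 8 far flanks were called, all higher in RIS and all of HOXA or HOXD. The shares of windows of the genome called higher with bins 14 to 38 were 14.8% and 15% for 4 bins, 16.4% and 16.1% for 5 bins and 17.6% and 17.4% for 6 bins. In the near part 1 of 8 was called, the low-numbered flank of HOXB at 0.17 (adjusted p = 0.013), where 18.8% of windows of 4 bins, 19.9% and 20% of 5 bins and 20.9% and 21% of 6 bins were called higher. HOXD with the far low-numbered flank had 0.64, 0.54 and 0.56 in growing libraries and 0.88 in both RIS libraries. With the far high-numbered flank it had 0.52, 0.52 and 0.46 against 0.71 and 0.89. The differences were 0.30 ± 0.07 (adjusted p = 0.014) and 0.30 ± 0.08 (adjusted p = 0.024), while in the near part they were 0.01 (adjusted p = 0.79) and -0.09 (adjusted p = 0.22). HOXA differed by 0.28 ± 0.07 (adjusted p = 0.023) and 0.26 ± 0.06 (adjusted p = 0.019) in the far low-numbered and high-numbered flank and by 0.04 (adjusted p = 0.45) and 0.13 (adjusted p = 0.066) in the near ones. The difference between the near and far parts was itself not tested. Within libraries with few duplicates and then with many, the far differences were 0.35 and 0.18 (low-numbered) and 0.27 and 0.21 (high-numbered) for HOXA, and 0.30 and 0.31 and then 0.19 and 0.43 for HOXD. For the near low-numbered flank of HOXB they were 0.17 and 0.22. The far calls were sensitive to single libraries. Without growing replicate 2, limma called 0 of 8 far flanks, with 5 at an unadjusted p under 0.05, without RIS replicate 1 it called 1 and without RIS replicate 2 it called 1. The far high-numbered flank of HOXA also lost its call without growing replicate 1 (0.23, adjusted p = 0.054), and that of HOXD without growing replicate 3 (0.28, adjusted p = 0.055). The near low-numbered flank of HOXB lost its call without RIS replicate 1 (0.15, adjusted p = 0.091). Near calls rose to 2 of 8 without growing replicate 1 and to 3 without growing replicate 3, where far calls were also 3, so the counts then did not separate the parts. The near calls gained were those of HOXC with its high-numbered flank without growing replicate 1 (0.18, adjusted p = 0.015) and, without growing replicate 3, of HOXC with its low-numbered flank (0.22, adjusted p = 0.0036) and of HOXA with its high-numbered flank (0.16, adjusted p = 0.04). HOXC had differences of opposite sign, with 0.15 (adjusted p = 0.071) in the near and -0.21 (adjusted p = 0.097) in the far low-numbered flank, neither of which passed with all 5 libraries. The far difference passed as a loss without growing replicate 1 (-0.27, adjusted p = 0.045), and the near one also passed with a block for the duplicate class (0.13, adjusted p = 0.049).

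Bin by bin, the strongest partners of the clusters are given by the mean of the growing libraries, and the highest bin was not the same in every library. HOXD had its highest value of all 4 profiles with chr2:177480001-177520000, 400 kb beyond the cluster on the HOXD1 side, at 2.35, 2.45 and 2.51 in growing libraries and 2.59 and 2.77 in RIS. On the HOXD13 side the highest growing mean was that of chr2:176200001-176240000, 680 kb away, at 2.08, 1.99 and 1.71 against 2.00 and 2.35. Neither bin holds the start site of a protein-coding gene. HOXA had its highest growing mean with chr7:26400001-26440000, 640 kb from its low-numbered end, at 1.98, 1.80 and 1.81 in growing libraries and 2.12 and 2.09 in RIS, and again with chr7:26880001-26920000, at 1.80, 1.70 and 1.64 against 1.81 and 1.85. Its highest RIS mean was with chr7:25920001-25960000, 1120 kb away, at 2.20 and 2.03 against 1.67, 1.47 and 1.68, the RIS libraries lying above the growing ones. HOXB peaked with chr17:46240001-46280000 in growing libraries, at 1.95, 1.83 and 1.87 against 2.23 and 2.03 in RIS. The bin beside it, chr17:46200001-46240000, was its highest in RIS, at 2.32 and 2.27 against 1.85, 1.76 and 1.61. Both lie toward the end of SKAP1, and the RIS libraries were above the growing ones in both. HOXC peaked with chr12:54560001-54600000, which holds the start of SMUG1, a DNA repair glycosylase, at 1.23, 1.22 and 1.15 in growing libraries and 1.502 and 1.572 in RIS. These bins were picked for their height and their differences were not tested one by one. At the other extreme, HOXA contacted chr7:27320001-27360000, just beyond EVX1, at -1.84, -1.65 and -1.66 in growing libraries and -2.004 and -1.92 in RIS. HOXC contact with chr12:53760001-53800000, which holds the start of the transcription factor SP1, was between -5.20 and -2.97 in the 5 libraries.

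**Figure D2:**
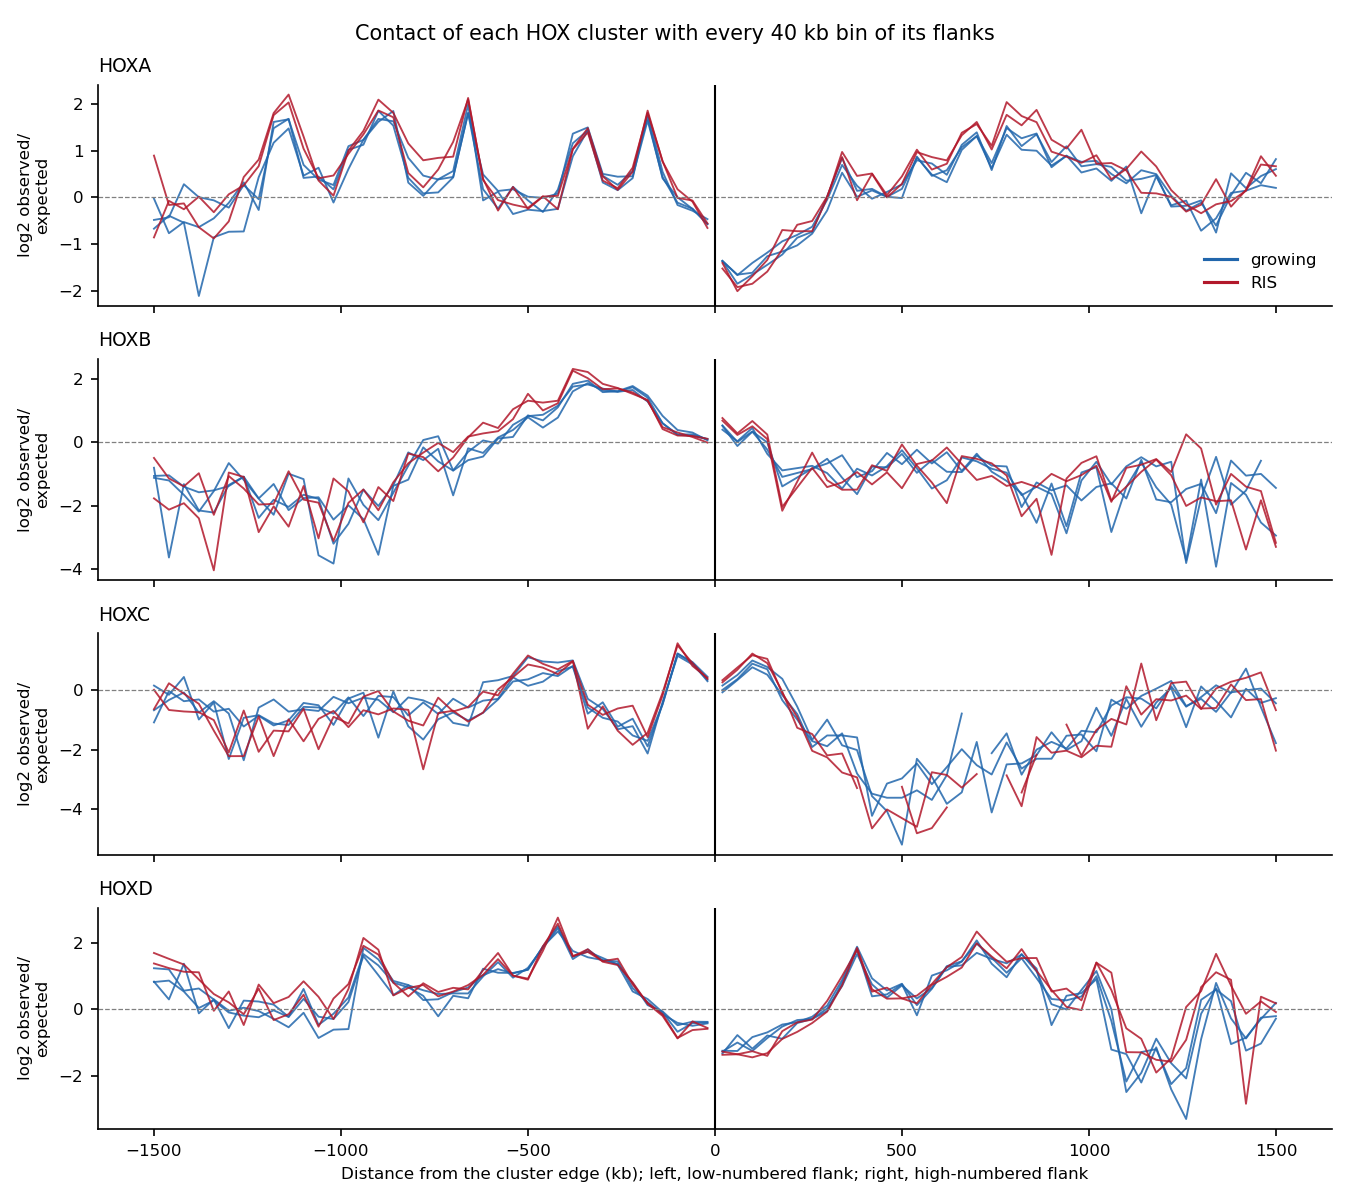
Log2 observed/expected contact of each whole cluster (vertical axis) with every 40 kb bin of its flanks, against the distance from the cluster edge in kb, the low-numbered flank on the left and the high-numbered flank on the right, 1 line per Hi-C library. HOXA and HOXD keep values above 0 over much of both flanks, peaking at 2.35 to 2.77 for HOXD, while HOXC falls to -2.97 or lower beside SP1. Gaps are bins with no contact in a library.

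The third question was where insulation, the lack of contact across a point, lies in the clusters. The insulation score is the log2 of the mean balanced contact across a bin boundary within 520 kb over the mean of the chromosome, so a low score is strong insulation. At this window HOXC held most of the called boundaries. All 6 of its boundaries rose in RIS, that is, contact across them was higher. With boundary 2 of HOXD, beside HOXD13, 7 of 24 HOX boundaries were called, all higher. In the genome 54.4% of boundaries were called and 26.3% were higher in RIS, so 7 of 24 is near the background. Both RIS libraries were above the growing ones at 15 of 24 HOX boundaries and at 37.1% of all boundaries. The picture depended on the window. With 25 bins (1000 kb) 19 of 24 HOX boundaries were called, all higher in RIS, including all 6 of HOXA, all 6 of HOXC and all 5 of HOXD, where 59.5% of all boundaries were called and 30.7% higher. With 5 bins (200 kb) 11 were higher and 5 lower, where 43.8% of all boundaries were called and 18.1% higher. The 6 boundaries of HOXC share most of their windows and are not independent.

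The mean score over the HOXC boundaries was 0.07, 0.05 and -0.02 in growing libraries and 0.21 and 0.18 in RIS, a difference of 0.16. The groups did not overlap, and the two-sided exact permutation test gave p = 0.1, the smallest it can give with 3 against 2 libraries. On contacts before balancing the difference in this mean was larger and of the same sign. The differences at the single boundaries ran from 0.12 ± 0.04 (adjusted p = 0.035) at the boundary between the start sites of HOXC6 and HOXC8 to 0.17 ± 0.03 (adjusted p = 0.0013) at the low-numbered edge and 0.19 ± 0.05 (adjusted p = 0.0088) at the high-numbered edge. In the duplicate classes the 6 differences of HOXC were 0.12 to 0.17 with few duplicates and 0.13 to 0.28 with many. Without RIS replicate 1 only the low-numbered edge of HOXC passed, 1 of 24 HOX boundaries in all. Boundary 2 of HOXC lost its call without RIS replicate 2 (0.16, adjusted p = 0.073), and the HOXC6 and HOXC8 boundary lost it without growing replicate 3 (0.087, adjusted p = 0.072). Boundary 2 of HOXD had -0.72, -0.67 and -0.64 in growing libraries and -0.53 and -0.61 in RIS (difference 0.11 ± 0.04, adjusted p = 0.029), 0.17 within libraries with few duplicates and 0.03 within those with many. It did not pass without growing replicate 1 (0.09, adjusted p = 0.091), growing replicate 2 (0.11, adjusted p = 0.067) or RIS replicate 1 (0.07, adjusted p = 0.23).

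Mean scores of the other clusters differed by at most 0.05 between the groups at this window, while with 25 bins HOXA differed by 0.16 and HOXD by 0.23, more than HOXC at 0.10. HOXA had -0.58, -0.51 and -0.46 in growing libraries and -0.49 and -0.53 in RIS, and HOXB had 0.30, 0.28 and 0.23 against 0.30 and 0.31. Both pairs of groups overlapped (exact permutation p = 1 and p = 0.3). HOXD had -0.34, -0.28 and -0.28 against -0.22 and -0.27, a difference of 0.05 with an exact permutation p = 0.2, in which the RIS libraries were just above the growing ones.

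Borders, taken as local minima of the score, separated the clusters into those that are split and those that are not. HOXA held a border in every library, at 27240000 on chromosome 7 in the 3 growing libraries and RIS replicate 2 and at 27200000 in RIS replicate 1, that is, at either end of the bin with the start sites of HOXA9, HOXA10, HOXA11 and HOXA13. Its prominence, the depth of the minimum below its surroundings, was 1.55 to 1.84, at or above that of 86.0 to 89.9% of the borders of the same library. HOXD held a border at 176960000 on chromosome 2, between the bin of HOXD13 and the bin of HOXD8 to HOXD12, in all 5 libraries, with prominences of 1.09 to 1.29. HOXC held none inside and was framed by borders at 54080000 and 54600000 on chromosome 12 in all 5 libraries. HOXB held none inside at this window and had one at 46960000 on chromosome 17 in all 5 libraries, beyond HOXB13. Scores at 54080000 were -1.25, -1.31 and -1.37 in growing libraries and lower, at -1.47, in both RIS libraries. At 54600000 they overlapped, with -0.51, -0.44 and -0.28 against -0.32 and -0.39. At 46960000 they were -0.41, -0.52 and -0.45 against -0.65 and -0.67. Both RIS libraries were below the growing ones at 34.9% of all boundaries, and no test is given for these borders. With a window of 200 kb, HOXB was split in all 5 libraries at 46720000, between the bin with the start sites of HOXB6 to HOXB9 and the DNA that leads to HOXB13, with scores of -1.14 to -1.33. At that window the main HOXD border lay at 177000000, before HOXD3 and HOXD4, in the growing libraries and RIS replicate 2 and at 176920000 in RIS replicate 1, and HOXC held only shallow minima, with prominences of 0.16 to 0.37.

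**Figure D3:**
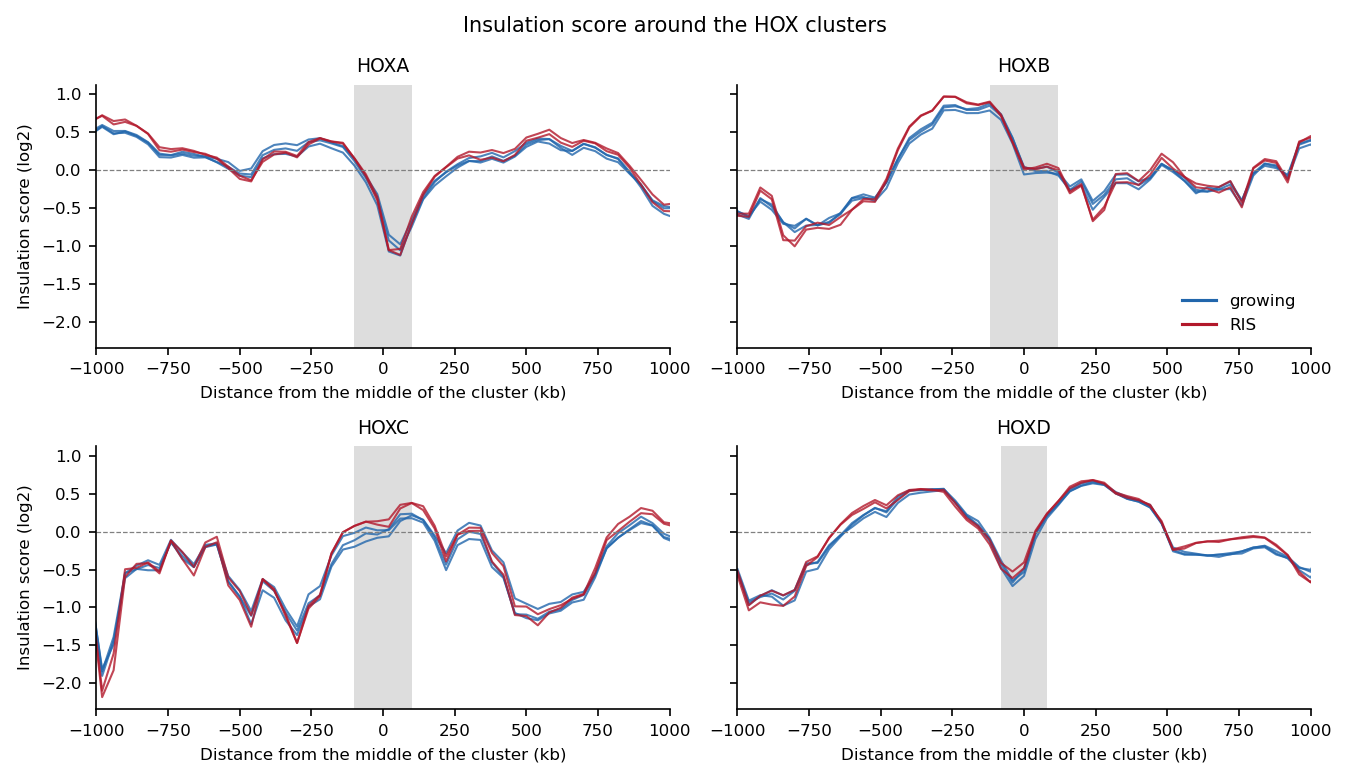
Insulation score (log2, vertical axis, 520 kb window) against the distance in kb from the middle of each HOX cluster, 1 line per Hi-C library, growing in blue and RIS in red, with the cluster shaded in grey. HOXA and HOXD each contain a minimum, at scores near -1.1 and from -0.72 to -0.53, and in HOXC the RIS lines lie above the growing lines throughout the shaded cluster.

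Another comparison asked which flank each stretch of HOX genes faces. For each bin, log2 observed/expected contact was taken with the 38 bins next to it on either side. The value on the high-numbered side was subtracted from that on the low-numbered side, so values above 0 favour the low-numbered side. Unlike the flanks of whole clusters, these sides can include other bins of the cluster. In the comparisons of single 40 kb bins, flank means this side. Genes are placed by their outermost annotated start site, which lies far from the other end of the gene for HOXA3, HOXB3, HOXB7, HOXC4, HOXC6 and HOXD3. HOXA and HOXD changed side within the cluster, while all bins of HOXB and HOXC favoured the low-numbered flank.

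In HOXA the bin of HOXA2 had a preference of 0.74, 0.94 and 0.89 in growing libraries and 0.59 and 0.59 in RIS (difference -0.27, adjusted p = 0.12), with both RIS libraries below the growing ones. The bin of HOXA3 to HOXA7 had a preference of 1.16, 0.95 and 1.24 in growing libraries and 1.05 and 1.44 in RIS. The next bin, with HOXA9, HOXA10, HOXA11 and HOXA13, was near balance, at 0.37, 0.24 and 0.13 against 0.46 and 0.26. The last bin, beyond HOXA13, favoured the other side, at -1.09, -1.13 and -1.25 against -1.18 and -1.19. Growing and RIS libraries overlapped in the bins from HOXA3 onward. In HOXD the bin of HOXD13, the gene for the ends of the limbs, had -1.05, -1.18 and -1.13 in growing libraries and -0.71 and -1.12 in RIS. The bin of HOXD8 to HOXD12 was near balance, at 0.28, 0.24 and 0.33 against 0.34 and 0.20. The bin of HOXD3 and HOXD4 had 1.62, 1.66 and 1.64 against 1.08 and 1.45, and the bin of HOXD1 had 1.21, 1.06 and 1.04 against 1.10 and 1.15. Preference was lowest at HOXD13 in all 5 libraries and highest at HOXD3 and HOXD4 in all but RIS replicate 1, where HOXD1 was above them. Of the HOXD bins only that of HOXD3 and HOXD4 had both RIS libraries below the growing ones (difference -0.37 ± 0.13, adjusted p = 0.068).

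The highest preference of all 20 bins in growing libraries was that of HOXB3 and HOXB6 to HOXB9, at 2.06, 2.02 and 2.09, with 1.66 and 2.16 in RIS. HOXC bins ranged over growing means from 0.32 (HOXC6, HOXC9, HOXC10 and HOXC11) to 0.79 (the bin beyond HOXC13).

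1 of 20 bins changed its preference by limma, against 17.2% of 65088 bins in the genome. It was the first bin of HOXA, chr7:27080001-27120000, which holds no start site of the 38 genes, and its preference fell from 1.18, 1.08 and 1.33 to 0.79 and 0.76 (difference -0.42 ± 0.12, adjusted p = 0.03). Both RIS libraries were below the growing ones here, as in 4 of the 20 HOX bins and 25.1% of all bins, with a difference of -0.34 within the libraries with few duplicates and -0.57 within those with many. The call was lost without growing replicate 1 (-0.43, adjusted p = 0.058), growing replicate 3 (-0.36, 0.079), RIS replicate 1 (-0.44, 0.11) or RIS replicate 2 (-0.41, 0.11). The count of called bins was higher with a block for the duplicate class.

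**Figure D4:**
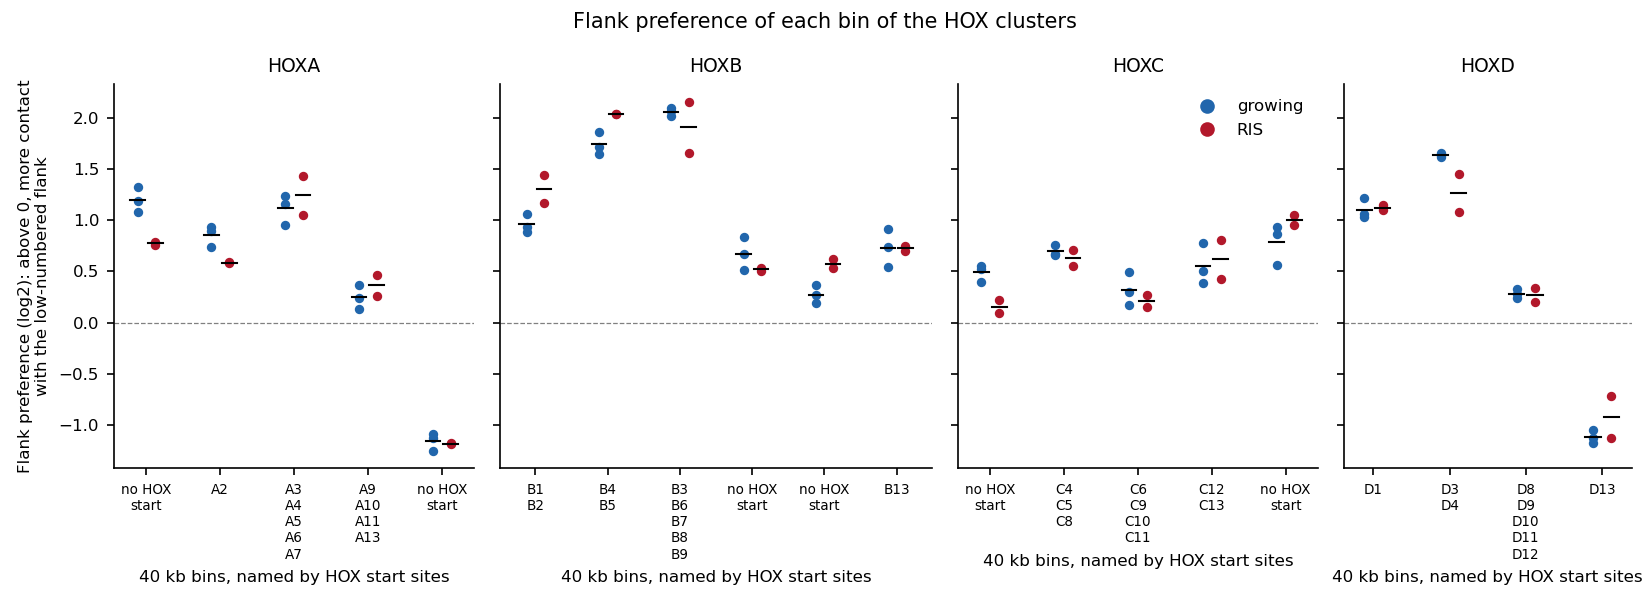
Flank preference (log2, vertical axis) of each 40 kb bin of the 4 clusters, ordered from the low-numbered to the high-numbered end and named by the start sites of the genes analysed, 1 point per Hi-C library with horizontal lines at the group means. A flank here is the 38 bins next to the bin on that side. HOXA falls from 0.95 or more at HOXA3 to HOXA7 to -1.09 or less beyond HOXA13, HOXD reaches -0.71 or less at HOXD13, and HOXB and HOXC stay above 0 in all libraries.

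Taken bin by bin, contact of the 20 HOX bins with the 2 flanks was called in 9 of 40 cases, 8 higher in RIS and 1 lower. The flanks were again the 38 bins on either side of each bin, other HOX bins included. The background was 22% of bins called for the lower-coordinate and 21.3% for the higher-coordinate flank, with 8.55% and 8.18% called higher and 13.4% and 13.1% lower. Both RIS libraries were above the growing ones in 22 of 40 cases, against 25.9% and 25.8% of all bins. The largest gain was in HOXB. The bin of HOXB4 and HOXB5, genes of the hindbrain and trunk, contacted its low-numbered flank at -0.24, -0.15 and -0.21 in growing libraries and at 0.35 and 0.25 in RIS, a difference of 0.50 ± 0.07 (adjusted p = 0.0051), or 1.42-fold. The bin of HOXB1 and HOXB2 went from -0.67, -0.67 and -0.53 to -0.20 and -0.24 (0.40 ± 0.07, adjusted p = 0.01). In both the RIS libraries were above all growing libraries, and the gains within each duplicate class (few, then many) were 0.54 and 0.46 for HOXB4 and HOXB5 and 0.47 and 0.29 for HOXB1 and HOXB2. Without RIS replicate 1 the bin of HOXB1 and HOXB2 gave 0.39 and an adjusted p of 0.051.

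4 of the 8 gains were in HOXA. The bin of HOXA3 to HOXA7 gained 0.37 ± 0.07 (adjusted p = 0.011) with its low-numbered flank, from 0.57, 0.53 and 0.64 to 0.91 and 0.99. The bin of HOXA9 to HOXA13 gained 0.32 ± 0.08 (adjusted p = 0.031) with the same flank, from 1.30, 1.13 and 1.12 to 1.56 and 1.44. The other HOXA gains were with the high-numbered flank, 0.31 ± 0.08 (adjusted p = 0.031) for the bin of HOXA2 and 0.30 ± 0.08 (adjusted p = 0.029) for the bin before it. In HOXD the bin of HOXD3 and HOXD4 gained 0.41 ± 0.09 (adjusted p = 0.019) with the high-numbered flank, from -0.55, -0.62 and -0.59 to -0.03 and -0.32. The bin of HOXD13 gained 0.37 ± 0.09 (adjusted p = 0.022) with the low-numbered flank, from 0.06, -0.11 and -0.04 to 0.43 and 0.24. Both HOXD gains were with the side that also holds other HOXD bins, so they mix contact within the cluster with contact beyond it. The single loss was in the last bin of HOXC on the low-numbered side, which contains no start site of the 38 genes but the end of HOXC4, and fell by 0.33 ± 0.08 (adjusted p = 0.023) with that flank, from -0.25, -0.26 and -0.35 to -0.53 and -0.71. With few and then many duplicates, the differences were 0.36 and 0.34 for HOXA3 to HOXA7, 0.35 and 0.31 for HOXA9 to HOXA13, 0.42 and 0.16 for HOXA2, 0.27 and 0.31 for the bin before it, 0.55 and 0.27 for HOXD3 and HOXD4, 0.46 and 0.28 for HOXD13 and -0.27 and -0.36 for the last bin of HOXC. Of the 9 calls, those of HOXA3 to HOXA7 and of HOXB4 and HOXB5 held on leaving out any single library. 3 of the 9 cases were called without growing replicate 2 and 3 without RIS replicate 1. The bin before HOXA2 lost its call without any 1 of the 5 libraries (adjusted p = 0.054 to 0.11). The bin of HOXA2 lost it without growing replicate 1 (0.32, adjusted p = 0.066), the bins of HOXA9 to HOXA13 and of HOXD13 without growing replicate 3 (0.28, 0.082 and 0.36, 0.056), and the last bin of HOXC without growing replicate 1 (-0.32, 0.062) or RIS replicate 2 (-0.24, 0.10).

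Capture Hi-C resolved HOXA in bins of 10 kb. 1 of 61 captured regions, counted here as runs of bins with contacts in all 4 libraries, chr7:26960001-27460000, held HOXA in 18 bins with 13 captured bins on the low-numbered and 18 on the high-numbered side, and the libraries held 82632 to 211183 contacts within HOXA. The captured flanks are far shorter than those above, and expected values here are means over the captured regions. Contact within HOXA was -0.387 and -0.392 in growing libraries and -0.393 and -0.445 in RIS. Contact with the captured low-numbered flank was 0.017 and 0.020 in growing libraries and 0.074 and 0.040 in RIS. Contact with the captured high-numbered flank was -0.95 and -0.90 in growing libraries and -1.02 and -1.04 in RIS. For each of the 3 values the groups did not overlap, with differences of -0.03, 0.04 and -0.10, and the exact permutation p was 0.333, the smallest that 2 against 2 libraries allow. The difference of -0.10 with the high-numbered flank was opposite in sign to the Hi-C differences of HOXA with that flank. Those were 0.23 for the whole flank, which was called, and 0.13 for its near part, which was not. Within HOXA and with the low-numbered flank, the sign was the same in both assays. The cause of the opposite sign was not tested.

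At 10 kb the change of side fell inside the stretch from HOXA7 to HOXA11. Flanks here are the captured bins outside HOXA. At the bin of HOXA4, flank preference came to 4.06 and 3.66 in growing and 3.81 and 3.91 in RIS libraries, and 3.47 and 3.38 against 3.18 and 3.57 at that of HOXA5. It dropped to 1.62 and 1.42 in growing libraries and 1.03 and 1.12 in RIS at the next bin, which holds the start sites of HOXA6 and HOXA7 and the outermost start of HOXA3. At HOXA9 and HOXA10 it was 0.25 and 0.29 against 0.06 and 0.21, still above 0 in all 4 libraries. At HOXA11 it was -0.51 and -0.19 against -0.33 and -0.34, and at HOXA13 -1.03 and -0.93 against -0.91 and -1.01. Preference thus crossed 0 between HOXA10 and HOXA11 in all 4 libraries.

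The contact across each 10 kb boundary, averaged over 10 bins on either side and set against the expected value, was lowest at 27190000, between the bins of HOXA5 and of HOXA6 and HOXA7. It was -1.39 and -1.27 in growing libraries and -1.33 and -1.40 in RIS, and the groups overlapped. The values stayed between -1.40 and -1.07 in all 4 libraries from there to 27240000, beyond HOXA13. Both printed HOXA motif matches lie in this stretch, but they were picked for lying near low contact, so their place is no evidence. HOXA matches that start at 27136674, 27150756 and 27169843 lie outside it. Of all 10 kb bins of the 4 chromosomes, 7.93% held a match, a background that was not tested against HOXA. At some other boundaries of the captured region the groups did not overlap. RIS libraries were lower at 27160000 (-0.39 and -0.40 in growing against -0.50 and -0.53) and at 27300000 (-0.19 and -0.21 against -0.34 and -0.38). They were higher at 27080000 (0.47 and 0.45 against 0.56 and 0.56). These boundaries are examples and were not tested.

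**Figure D5:**
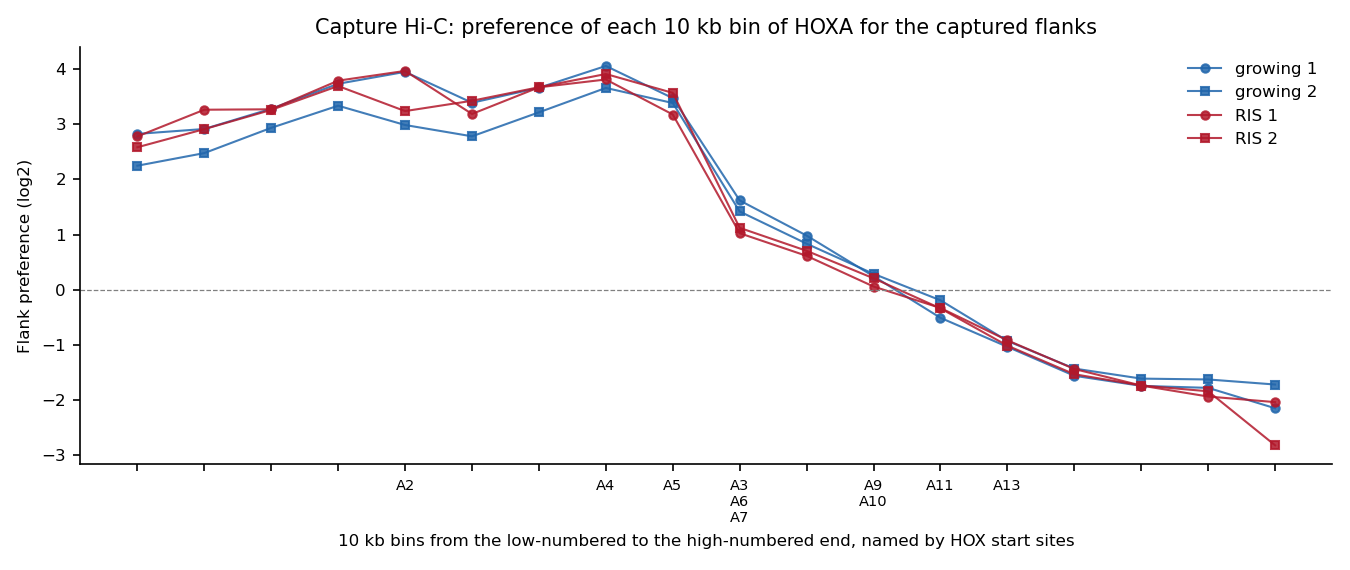
Flank preference (log2, vertical axis) of each 10 kb bin of HOXA in capture Hi-C, from the low-numbered to the high-numbered end and named by the start sites of the genes analysed, 1 line per library with growing in blue and RIS in red. All 4 lines fall from 3.18 or more at HOXA5 to 1.62 or less at HOXA6 and HOXA7 and cross 0 between HOXA10 and HOXA11.

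No single pair of HOX bins was called by limma. Among 1959040 tested bin pairs of 40 kb, at most 2 Mb apart, limma on balanced values called 760 (0.0388%), with 0 of the 41 pairs within HOX clusters and 0 of the 929 pairs of a HOX bin with its flank. At an unadjusted p under 0.05 the counts were 1 of 41 and 125 of 929 (13.5%), against 10.2% of all pairs. With voom on recovered contacts 1.28% of all pairs were called, and 3 of 41 and 24 of 929 HOX pairs, the 3 all higher in RIS and 20 of the 24 higher. All 6 pairs within HOXD were higher in RIS, with a median log2 difference of 0.19, as were 8 of 10 within HOXC (0.12), 11 of 15 within HOXB (0.04) and 5 of 10 within HOXA (-0.04). In capture Hi-C limma called 64 of 358634 pairs (0.0178%) and 0 of the 153 and 558 HOXA pairs within the cluster and with its flanks. At an unadjusted p under 0.05 these were 18 and 66 pairs, where 13.4% of all capture pairs were at that level. Voom called 11.6% of all capture pairs, and 19 of 153 and 45 of 558 for HOXA. Of the 234 capture pairs of HOXA with its low-numbered flank, 95 were higher in RIS, with a median log2 difference of -0.07, opposite in sign to the difference of the mean contact above. Of the 324 pairs with its high-numbered flank, 132 were higher, with a median of -0.08. Of the 234 capture pairs that join the low-numbered flank to the high-numbered flank across HOXA, 35 were higher in RIS, with a median log2 difference of -0.31 and 0 called by limma (20 at an unadjusted p under 0.05). The counts of pairs higher in RIS, in Hi-C and capture, are not set beside the share of all tested pairs. They describe direction only.

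The clusters hardly touched each other at this depth. The 6 pairs of clusters together shared 2, 0 and 0 contacts in growing and 1 and 0 in RIS libraries, where 0.36 to 0.47 contacts were expected from the totals of the same bins with the partner chromosome. A count of 0 allows up to 3 contacts, so an excess several times the expected number was not detectable. With 5 bins added on each side the contacts were 11, 10 and 6 in growing libraries and 7 and 5 in RIS. Their log2 ratios to the expected number were 0.94, 0.66 and -0.09 against 0.46 and -0.31, which overlapped (exact permutation p = 0.4). With the whole flanks of 38 bins added, 238, 226 and 244 contacts were found in growing libraries and 195 and 244 in RIS. All 5 libraries were then above the expected number, with log2 ratios of 0.40, 0.19 and 0.29 against 0.43 and 0.37 (exact permutation p = 0.3, groups overlapping). On balanced values the direction turned, with 0.23, 0.20 and 0.07 in growing libraries and 0.10 and 0.04 in RIS, a difference of -0.10. Of the 6 pairs, 2 are named as a description, chosen after their values were seen. The neighbourhoods of HOXA and HOXC exceeded the expected number in every library, by log2 ratios of 0.80, 0.56 and 0.59 in growing libraries and 0.42 and 0.52 in RIS, and those of HOXA and HOXD by 0.37, 0.22 and 0.48 against 0.96 and 0.36.

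The compartment score places a region on the axis that divides active, gene-rich chromatin (high values) from inactive chromatin (low values), in units of the SD over its chromosome, in bins of 120 kb. HOXB was the most active-like, at 0.91, 0.84 and 0.87 in growing libraries and 0.81 and 0.80 in RIS. HOXA was at 0.26, 0.25 and 0.08 against 0.30 and 0.29. HOXC was at -0.07, -0.09 and -0.26 against 0.14 and 0.29, and HOXD at -0.40, -0.41 and -0.41 against -0.25 and -0.14. The RIS libraries were above the growing ones in HOXA, HOXC and HOXD and below them in HOXB, with exact permutation p values of 0.3, 0.1, 0.1 and 0.2 for HOXA, HOXC, HOXD and HOXB. Of windows of the same sizes on the 4 chromosomes, 31.3% had both RIS libraries above the growing ones and 43.1% below. By rank within the chromosome HOXA turned the other way, above 56.9, 57.2 and 54.2% of bins in growing libraries and 53.7 and 53.5% in RIS. HOXC exceeded 47.2, 46.9 and 43.2% of bins in growing libraries and 47.1 and 50.6% in RIS, and HOXD exceeded 37.1, 36.0 and 37.7% against 36.1 and 38.8%, so both overlapped by rank. HOXB overlapped too, at 75.6, 70.3 and 73.0% against 72.7 and 70.2%. In bins of 200 kb the groups overlapped by score in HOXA, HOXB and HOXD, and the HOXD difference was 0.05. With 120 kb bins, the axis behind the score carried less of the variance in RIS on the chromosomes of HOXA, HOXB and HOXC. For HOXC it carried 86.5, 86.6 and 88.2% in growing libraries and 77.7 and 79.4% in RIS. For HOXD it carried 87.0, 88.1 and 88.2% against 88.9 and 90.0%. An effect of this on the scores was not tested.

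The start sites of genes that work with or on the HOX clusters were followed as 5-bin windows of self-contact, for which 16.8% of windows of the genome were called higher in RIS and 27.1% lower, with a median difference of -0.013. Of 7 HOX cofactors tested, 1 was higher and 0 lower (median 0.06), MEIS1, a homeodomain partner of HOX proteins, from -0.72, -0.66 and -0.63 to -0.57 and -0.49 (adjusted p = 0.02). PBX2 differed by 0.10 (adjusted p = 0.09) and MEIS2 by -0.04 (adjusted p = 0.45), neither of which passed. Of 14 Polycomb genes, 5 were higher and 1 lower (median 0.09). PHC2, a subunit of Polycomb repressive complex PRC1, gained 0.31 ± 0.05 (adjusted p = 0.00018). BMI1 fell by 0.12 ± 0.04 (adjusted p = 0.021), and PHC3 differed by 0.01 (adjusted p = 0.83). Of 6 Trithorax genes 1 was higher, RBBP5 at 0.14 ± 0.04 (adjusted p = 0.013), and 1 lower, KMT2B at -0.21 ± 0.07 (adjusted p = 0.032), with a median of 0.03, while KMT2A (0.10, adjusted p = 0.068) and KMT2C (-0.10, adjusted p = 0.15) did not pass. Of 37 other homeobox genes 10 were higher and 4 lower (median 0.06), with EN2 (0.37 ± 0.04, adjusted p = 6.2e-05) and ALX4 (0.21 ± 0.05, adjusted p = 0.0044) highest and LHX9 (-0.24 ± 0.05, adjusted p = 0.002) lowest. Without RIS replicate 1, 6 of these 37 were called in place of 14. By limma, 0 of 7 cofactors were called without growing replicate 1 (1 at an unadjusted p under 0.05) or RIS replicate 2 (0 at that level), and 0 of 6 Trithorax genes without RIS replicate 2 (1 at that level).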

How the data were processed

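The authors ran FastQC on the reads, HiC-Pro for alignment to hg19, HiC-Pro with diffHic against artefacts and samtools markdup against duplicates, and deposited for each library the signal, that is, ICE-balanced contacts per pair of bins of 40 kb (Hi-C) or 10 kb (capture Hi-C). ICE equalizes the sums of the bins, so depth was read from recovered contacts (value divided by 1 factor per bin), of which at least 99.98% came out whole within 0.05, widened in proportion for large counts. 69621 bins were usable in all 5 Hi-C libraries. Groups came from the labels, and the classes of few and many duplicates from the study's alignment summary. limma 3.58.1 in R 4.3.3 was run on log2 values over all windows, boundaries, bins or pairs of bins (pseudocount of 0.5, mean scaled value of at least 5, loess on abundance), with Benjamini-Hochberg adjustment at 5%, and a two-sided exact permutation test over libraries was used for single values. The methods test counts at several bin sizes, and limma on balanced signal took the place of that test. Members, gene lists and rules were chosen with earlier results of these data known, and the split of the flanks and the CTCF core motif were chosen after values were seen. The 38 HOX genes and their neighbours were named as listed for this work, and of the other lists the 2 highest and 2 lowest differences, some of which are not reported here. Scripts were tested on simulated data. Gene positions came from GENCODE on GRCh37, whose chromosome lengths matched 24 of the 25 chromosomes of the bin list. Python 3.11.15 (numpy 2.4.6, pandas 2.3.3) did the rest. Counts of contacts and the limit set by a count of 0 cover counting error only.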

Additional observations from a re-analysis of the deposited data

How the results depend on the processing

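Alternative settings gave 613 values of 62 results. Of these, 442 stayed on the same side of the threshold, moved by less than the spread or, for counts, stayed of similar size. A further 64 lost and 9 gained the threshold, 97 moved and 1 reversed, that is, changed sign where it passed the threshold in either setting. Counting values that passed in neither, 21 changed sign. Those of single HOX bins, of the near and far flanks and of the gene lists were added after the data were seen. The cause of these changes was not tested. The reversed value was HOXD contact with the high-numbered flank, -0.089 when the flank was cut to 13 bins. With that flank HOXA gave 0.044 and 0.13 on the low-numbered and high-numbered side and HOXD 0.015 on the low-numbered side, none of which passed, and no bin (0) changed its preference. HOXB with bins 14 to 38 of its low-numbered flank gave 0.20 and did not pass. With 1 bin more on each side, self-contact differed by 0.11 in HOXB and 0.12 in HOXC, both past the threshold, and by 0.062 in HOXD, which lost it. Contacts before balancing gave self-contact of 0.25 in HOXB and 0.40 in HOXC and high-numbered flanks of 0.22 in HOXB and 0.20 in HOXC, all past the threshold, 0.14 for the low-numbered flank of HOXD, which was not, a mean insulation difference of 0.28 in HOXC, and capture differences of -0.058 within HOXA and 0.079 with its low-numbered flank.

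Leaving out 1 library at a time gave 0.014 to 0.20 for HOXC self-contact, 0.17 to 0.24 and 0.15 to 0.21 for the low-numbered flanks of HOXA and HOXB, -0.021 to 0.16 for the high-numbered flank of HOXB, 0.17 to 0.20 and 0.14 to 0.25 for the low-numbered and high-numbered flanks of HOXD, and 0.15 to 0.27 for the HOXD compartment score. It gave 0 to 1 bins with a changed preference, 1 to 7 changed boundaries, 0 of all Hi-C pairs and 0 to 2497 of all capture pairs, with 0 HOX pairs throughout. It gave 3 to 9 HOX bins with a changed contact with a flank, 0 to 3 changed near flanks, 0 to 4 changed far flanks, and 0 to 2 cofactors, 0 to 2 Trithorax genes and 6 to 14 other homeobox genes. The lone library of a group is then taken to vary like the other group.

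Within libraries with many duplicates the differences were 0.19 for HOXD self-contact, 0.13 and 0.18 for the low-numbered and high-numbered flank of HOXA, 0.25 and -0.027 for those of HOXB, -0.16 and 0.053 for those of HOXC, 0.25 for the high-numbered flank of HOXD, and -0.078, 0.073 and 0.0045 for the mean insulation of HOXA, HOXB and HOXD. Within libraries with few duplicates they were 0.26 for the low-numbered flank of HOXA, 0.16 for the high-numbered flank of HOXB, -0.034 for that of HOXC, 0.14 for that of HOXD and 0.091 for the mean insulation of HOXD. With a block for the duplicate class HOXC self-contact was 0.13 and passed, 2 bins changed preference, 2 near flanks and 2 cofactors were called, and 0 pairs. An insulation window of 25 bins gave 0.16, 0.070, 0.10 and 0.23 for HOXA, HOXB, HOXC and HOXD and 19 of 24 boundaries called, and a window of 5 bins gave -0.0029 for HOXD and 16 boundaries. Of all boundaries in the genome, 59.5% were called with 25 bins and 43.8% with 5 bins. In bins of 200 kb the compartment difference was -0.017 for HOXB and 0.048 for HOXD. Balanced values gave -0.10 for contact between clusters with 38 bins on each side.

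Of all Hi-C pairs, 1187 were called without loess, 0 with a pseudocount of 2, 8 with a minimum of 20, 0 with no minimum and 25133 by voom, with 1 HOX pair with a flank called without loess and 3 and 24 HOX pairs by voom. Of all capture pairs, 1395 were called without loess, 216 with a pseudocount of 2 and 41479 by voom, with 1 HOXA pair without loess and 19 and 45 by voom.

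Growing and RIS share the replicate numbers 1 and 2, but the labels tie them to no shared culture. Deviations of same-numbered Hi-C libraries correlated at 0.11 and -0.22, those of Hi-C libraries of one duplicate class at 0.11, 0.22 and 0.24, and those of capture libraries at -0.001. With 2 RIS libraries their deviations are equal and opposite, so the Hi-C values are not independent. The 0.11 belongs to both groupings. With the number as a block, which leaves out growing replicate 3, the 5 flank calls and that of HOXD self-contact (0.22) were kept, 6 boundaries, 0 bins by preference, 3 near flanks and 3 far flanks were called, and 0 Hi-C and 0 capture pairs.

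The clusters have 4 to 6 bins and rest on 450 to 1637 contacts in a library, contact between clusters rests on 0 to 2, and 2 RIS libraries set the spread on that side of every Hi-C test.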
